A study of Equus caballus with 93 samples.

Results

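The comparison described here is that of synovial fluid cells from saline-injected operated joints at week 4 with cells from the same joints before surgery at week 0. It uses 15 of the 93 libraries of the study, chosen from their labels alone: all 8 Control libraries of week 0 and all 7 Control libraries of week 4. Horses 1, 2, 9, 10, 13, 15 and 16 gave a library at both times, and horse 11 gave one at week 0 only. In this model a chip of bone and cartilage is created surgically in a middle carpal joint, and the joint then develops osteoarthritis. Control horses, aged 2 to 5 years, received 2 mL of phosphate buffered saline in the operated joint on day 14 and were exercised 5 days per week from week 2. The other arm received 2 mL of 2.5% injectable polyacrylamide hydrogel (iPAAG) in the same way. At week 4 the Control joints had thus been operated on, injected with saline and exercised for 2 weeks, and each of these separates them from week 0. Surgery, injection, exercise and elapsed time cannot be told apart in this comparison, and sham-operated joints were not analysed here.

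Synovial fluid lubricates the joint and is normally poor in cells, most of them macrophages, lymphocytes and cells shed from the lining of the joint. When a joint is injured or inflamed, leukocytes enter the fluid from the blood, and cells of the lining release cytokines and enzymes that degrade matrix. A change in RNA from the cell pellet can therefore come from cells entering or leaving the fluid or from altered transcription in cells already there, and in such bulk samples fewer cells of a type and less RNA per cell cannot be told apart. The table identifies genes by Ensembl horse identifiers only. The table of gene names used here matched 0 of the 15838 identifiers, so the labelled cell type could not be checked against markers, no gene list was tested and the function of the genes below is not given. The results are accordingly about how many genes changed, how strongly, at which expression level and in which horses, with 2 genes that rose and 2 that fell described by identifier.

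The 8 week 0 libraries held 17431476 to 33885608 reads in genes and the 7 week 4 libraries 17419105 to 39916655. In the 7 horses with both libraries the mean difference in depth was -4178905 reads (6 of 7 lower at week 4, adjusted exact permutation p = 0.391). Without horse 1 it was -6994823 reads (adjusted exact permutation p = 0.0781). With so few pairs the test does not show that depth was equal. Log2 CPM, the log2 of reads scaled to a common library size, was about as widely spread over genes at both weeks, with an SD of 3.44 ± 0.17 at week 0 and 3.47 ± 0.25 at week 4 (SD, n = 7 horses, adjusted exact permutation p = 1). One week 0 library stood apart: in horse 11, 2360 genes had no read, against 328 to 744 in the other week 0 libraries, and the SD over genes was 4.21. Reads were somewhat more concentrated at week 4. The 100 genes with most reads in a library took 23.6% ± 1.15 of reads at week 0 and 26.6% ± 1.71 at week 4 (SD, n = 7 horses). The share was higher in 7 of 7 horses, which gives the smallest exact permutation p that 7 pairs allow (0.0156), and 0.0781 after adjustment over 5 library measures.

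By week 4, 1329 of 15838 genes were called, that is, passed an adjusted p of 0.05 in limma with horse as a random block. This was 8.39% of the genes tested, with 844 genes higher (5.33%) and 485 lower (3.06%) than before surgery. Most of the changes were moderate. The median log2 change was 0.84 among the called higher genes and -0.93 among the called lower genes, against 0.01 over all genes. A change of at least 1 on the log2 scale, a doubling or more, was seen in 365 of the called higher genes, and a fall to at most the corresponding fraction in 219 of the called lower genes. Changes of at least 2 were seen in 158 higher and 65 lower genes, and changes of at least 4 in 26 and 9. Called or not, 1425 of all 15838 genes had a fitted rise of at least 1 and 1015 a fitted fall of at least 1.

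The count of called genes depended on single horses and on the block. Without horse 15 it was 225, without horse 16 it was 220 and without horse 2 it was 650, whereas without horse 11, the horse of the library that stood apart, it was 1447. Without any block for horse 675 genes were called, 499 higher and 176 lower, and with horse as a fixed block in the 7 paired horses 838, 480 higher and 358 lower. The last gene inside the threshold had an adjusted p of 0.04997 and the first outside it 0.05001.

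**Figure D1:**
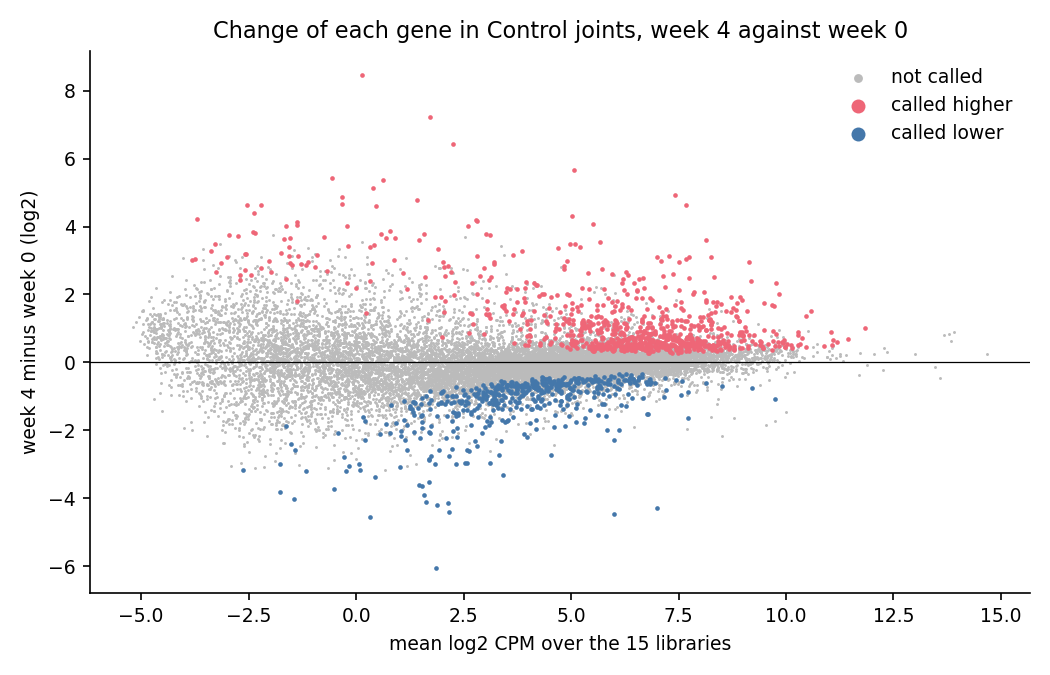
Each point is a gene. The x axis is its mean log2 CPM over the 15 libraries and the y axis its fitted change from week 0 to week 4 on the log2 scale. Red points are the 844 genes called higher, blue points the 485 called lower and grey points the genes not called. Red points have a median mean log2 CPM of 6.50 and blue points of 3.93, and both colours are found in every class of expression.

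Among the called genes, the direction was shared by nearly all horses. Of the 844 called higher genes, 483 rose in 7 of 7 horses, 319 in 6 and 42 in 5. Of the 485 called lower genes, 277 fell in 7 of 7 horses, 189 in 6 and 19 in 5. Over all genes tested, 4.86% were higher and 4.96% lower in every horse. These counts describe genes that the same contrast selected, and a shared direction favours selection. In 90 of the called higher genes, every week 4 library lay above every week 0 library, horse 11 included, and in 18 of the called lower genes every week 4 library lay below. Over all genes, such complete separation was seen for 0.575% with week 4 higher and 0.12% with week 4 lower.

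The called genes carried a sizeable part of the RNA. The 844 higher genes took 11.1% ± 0.71 of the reads in genes at week 0 (SD, n = 8) and 18.5% ± 2.84 at week 4 (SD, n = 7). Their share ran from 10.3% to 12.1% before surgery and from 13.7% in horse 1 to 21.6% in horse 2 at week 4, so that the weeks did not overlap. The 485 lower genes took 2.02% ± 0.20 at week 0 and 0.92% ± 0.24 at week 4. Again the lowest week 0 share, 1.74%, lay above the highest week 4 share, 1.34% in horse 1. As the genes were selected on this contrast, these shares have no test.

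Higher and lower genes differed in expression level. The median of mean log2 CPM was 6.50 for the called higher genes and 3.93 for the called lower genes, beside 3.95 over all genes. Among the 1863 genes whose mean log2 CPM was 7 or higher, 326 were called higher (17.5%) and 12 lower (0.64%). In the class from 4 to below 7, with 5957 genes, 379 were higher (6.36%) and 224 lower (3.76%). From 1 to below 4 the order turned, with 74 of 4005 genes higher (1.85%) and 224 lower (5.59%). Below 1, where counting noise is largest, 65 of 4013 genes were higher (1.62%) and 25 lower (0.62%). The strongest single rise, by 8.45 on the log2 scale, was in that lowest class.

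This pattern by level moved with the scaling of the libraries. The size to which the authors scaled each library was 0.91 ± 0.04 times the counted reads at week 0 and 0.78 ± 0.05 times at week 4 (SD, n = 7 horses), lower at week 4 in 7 of 7 horses, which raises every week 4 value. With values scaled to the counted reads instead (plain CPM), the median change over all genes went from 0.01 to -0.23, and 2407 genes were called, 441 higher (2.78%) and 1966 lower (12.4%). In the class of 7 or more, 8.00% of genes were then higher and 6.66% lower. With each library centred on its median, the median change was 0.12 and 1494 genes were called higher (9.43%) and 287 lower (1.81%). With quantile normalisation, which gives each library the same distribution, 586 were higher (3.7%) and 423 lower (2.67%), and the class of 7 or more held 5.90% higher and 4.08% lower. The excess of rises among abundant genes was thus large with the deposited scaling and small with these others except median centring, where 28.5% of that class was higher and 0.16% lower.

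Plain CPM lowers and median centring raises the change of genes in general, so each can turn called genes of 1 direction only. With plain CPM all 844 called higher genes kept their sign and 440 their call, and with median centring all 485 called lower genes kept their sign and 287 their call. With quantile normalisation 486 of the higher and 273 of the lower genes were still called. Under all of them together 379 higher and 201 lower genes were still called, and among those with a change of at least 1, 304 of 365 and 128 of 219.

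**Figure D2:**
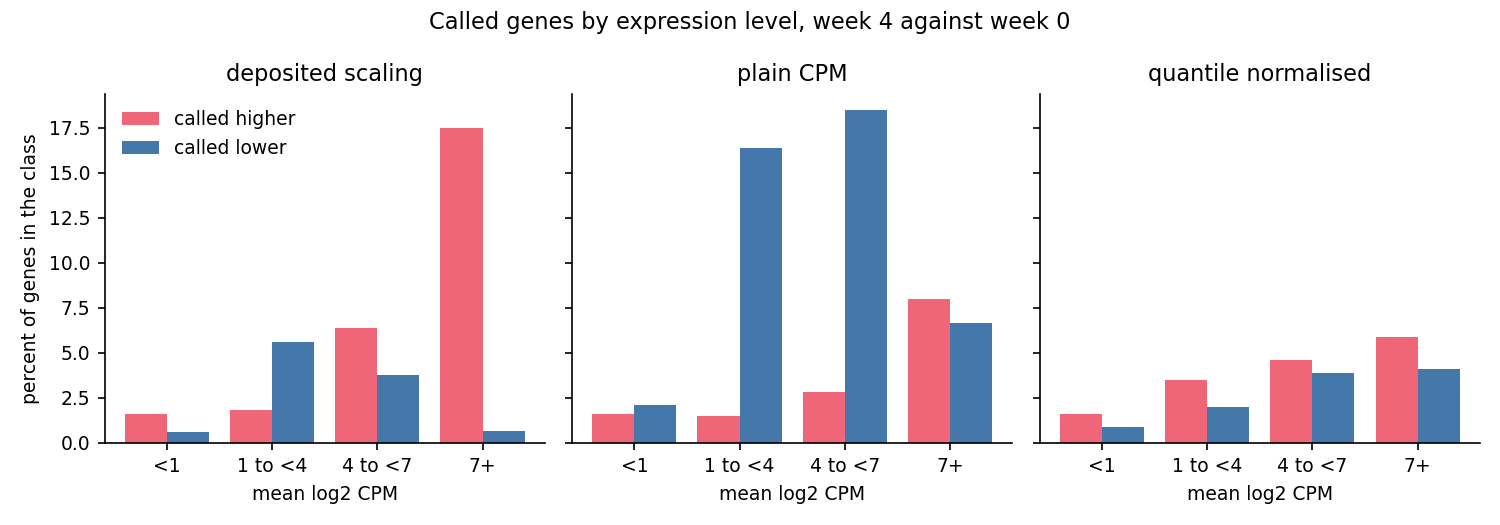
Bars give the percentage of genes in each class of mean log2 CPM (x axis) that were called higher (red) or lower (blue) at week 4, on a y axis in percent from 0. With the deposited scaling 17.5% of the most abundant class was higher, with plain CPM 8.00% and with quantile normalisation 5.90%. In the class from 1 to below 4, lower genes outnumber higher ones with the deposited scaling and plain CPM, but not with quantile normalisation.

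Genes are named by a rule: the largest fitted rises and falls among called genes that averaged 1 or more in log2 CPM and moved the same way in all 7 horses. The rule left 451 higher and 268 lower genes, of which the first 2 in each direction are given. ENSECAG00000022525 had the largest rise under this rule. At week 0 its log2 CPM ranged from -5.09 to 0.45 with a median of -1.46 (8 horses), or 0 to 39 reads, and at week 4 from 1.34 to 8.55 with a median of 5.90 (7 horses), or 85 to 7429 reads. The weeks did not overlap, but the week 4 values were far apart. Horses 2, 15 and 16 reached 8.34, 8.52 and 8.55, horse 9 reached 5.90, and horses 10, 13 and 1 had 3.74, 3.03 and 1.34. The fitted change was 7.24 ± 1.00 on the log2 scale (SE, adjusted p = 0.00117).

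ENSECAG00000056325 also rose from a low level in every horse. At week 0 its log2 CPM ranged from -5.09 to 2.75 with a median of -0.63 (0 to 194 reads), and at week 4 from 2.79 to 7.76 with a median of 5.95 (232 to 3556 reads). The weeks touched without overlapping, since horse 2 at week 0 had 2.75 and horse 1 at week 4 had 2.79. The horses ranked differently from the first gene. Horse 13, with a rise of 8.79 on the log2 scale, was second to horse 15 with 9.94, and horse 1 again had the smallest, 0.93. The fitted change was 6.44 ± 0.96 (SE, adjusted p = 0.00157). Both rises start from few reads, and the 0.5 reads in each deposited value enter their size. With 2 reads added instead they were 6.87 and 6.09.

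ENSECAG00000018814 had the largest fall. Its log2 CPM at week 0 ranged from 0.45 to 7.20 with a median of 5.16 (39 to 2505 reads), and at week 4 from -5.04 to 0.85 with a median of -1.65 (0 to 42 reads). The overlap came from horse 2, the only week 0 library below 3. With 0.45 before surgery and -0.48 at week 4, horse 2 had the smallest fall, while horse 15 fell by 10.19 to no read at all. The fitted change was -6.06 ± 0.89 (SE, adjusted p = 0.00146).

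ENSECAG00000020974 fell from a median log2 CPM of 4.76 at week 0 (range 1.11 to 5.74, 62 to 909 reads) to -0.26 at week 4 (range -4.73 to 3.14, 0 to 214 reads). Here horse 2 had both the lowest value before surgery and the lowest at week 4. Horse 13 hardly moved, from 3.27 to 3.14, and horse 1 fell by 2.26, whereas horse 9 fell by 6.99. The fitted change was -4.41 ± 0.88 (SE, adjusted p = 0.00894), and the call ended without horse 15 (-4.20, adjusted p = 0.0545). With voom weights, which give less weight to low counts, the calls of ENSECAG00000022525, ENSECAG00000018814 and ENSECAG00000020974 ended at changes of 7.19, -5.84 and -4.16 (adjusted p = 0.149, 0.135 and 0.071), and that of ENSECAG00000056325 held (6.35, adjusted p = 0.033).

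**Figure D3:**
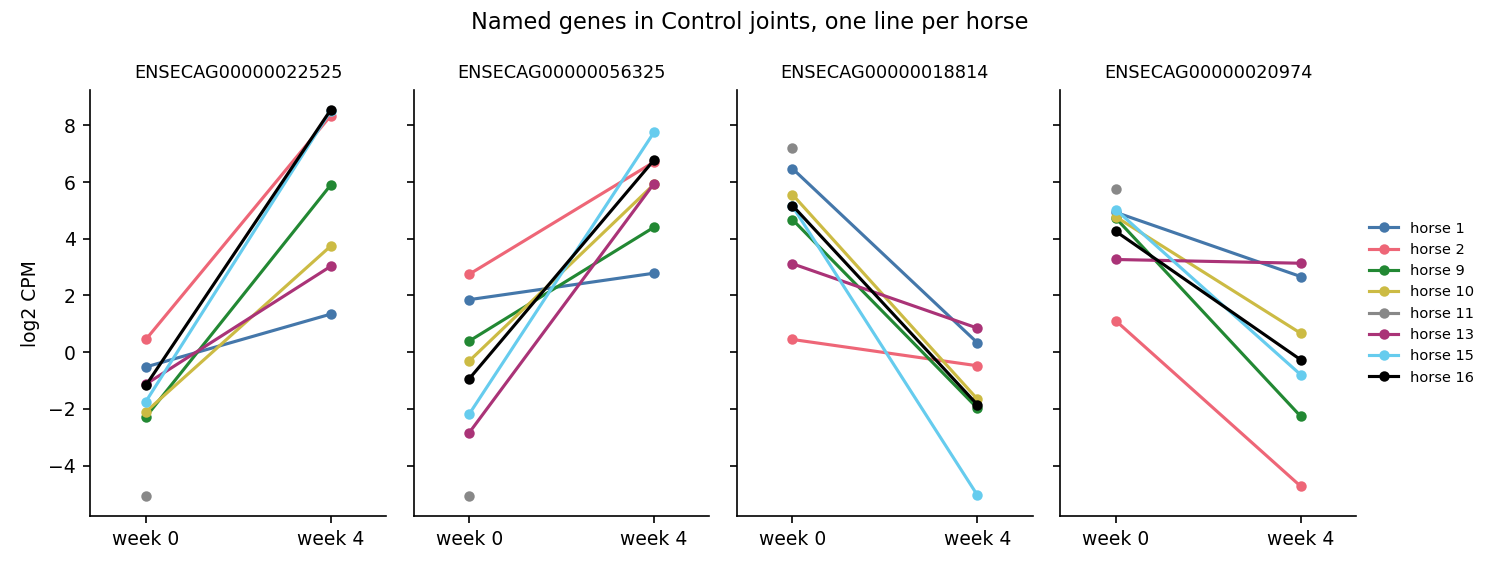
Log2 CPM (y axis) of the 4 named genes at week 0 and week 4 (x axis) in Control joints. Each colour is a horse, a line joins its libraries, and horse 11 has a point at week 0 only. Every line rises for the first pair of genes and falls for the last pair, and the flattest line is that of horse 1 in the first pair, horse 2 for ENSECAG00000018814 and horse 13 for ENSECAG00000020974.

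The size of the change differed between the horses. Each horse gave a single library per week, so differences between horses and between single libraries cannot be told apart. Because the called genes were selected on these same libraries, the size of the response was also measured on genes selected elsewhere: those called at week 2 against week 0 in the iPAAG arm with a change of at least 1, which shares no library with the Control horses. In that fit 13.1% of all genes were called higher and 14.7% lower, and the size condition left 656 and 976. That arm also met the genes called in Control joints: of the 844 higher genes 627 were called higher at week 2 (74.3%, and 30.3% of that list), and of the 485 lower genes 322 were called lower (66.4%, and 13.8%). At week 4 the 656 genes had a median log2 change of 1.70 in horse 15, 1.69 in horse 16, 1.68 in horse 13 and 1.01 in horse 10. In horses 2, 9 and 1 the medians were 0.86, 0.65 and 0.48. Every horse was above its own median over all genes, which lay between -0.12 and 0.01. The share of these genes that was higher ran from 70.1% in horse 9 to 96.3% in horse 15, beside 43.7% to 50.7% of all genes.

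The 976 genes lower in the other arm followed a similar but not identical order. Their median change was -1.25 in horse 16, -1.23 in horse 10, -1.18 in horse 15 and -0.75 in horse 13, then -0.51 in horse 2, -0.50 in horse 9 and -0.21 in horse 1. Horse 13 thus stood with the strongest horses for the rises and below them for the falls. Its week 4 library was also the one with the fewest genes without a read (98) and the lowest SD over genes (2.94). Whether that takes part in the result was not tested. Horse 1 had the smallest change in both sets. Without libraries of an SD below 2 the iPAAG fit called 13.5% of genes higher and 12.1% lower, and the medians ran from 0.49 to 1.65 for 655 genes and from -1.19 to -0.20 for 931.

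**Figure D4:**
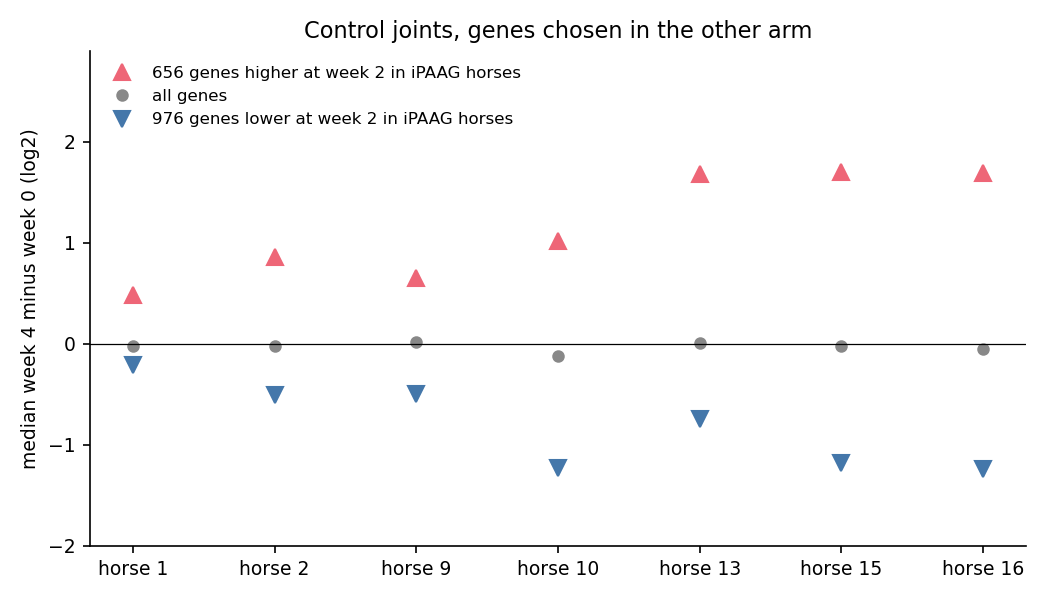
Median change from week 0 to week 4 (y axis, log2) in each Control horse (x axis) over 656 genes called higher (triangles up) and 976 called lower (triangles down) at week 2 in iPAAG horses, and over all genes (circles). Horse 1 lies nearest to 0 in both sets, and horses 15 and 16 are far from 0 in both.

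A left-out horse was also read on genes called in the others. For each of the 7 horses, genes were called without it and then read in it. Without horse 15, 172 genes were called higher, of which 99.4% were higher in horse 15, with a median of 1.92, and 53 lower, of which 100% were lower. Without horse 16 the shares were 99.4% of 169 genes and 100% of 51. In horse 2 they were 91.4% of 475 and 90.3% of 175, in horse 9 83.8% of 716 and 77.5% of 374, and in horse 10 72.6% of 716 and 82.2% of 281. In horse 1 they were 64.2% of 1129 genes and 58.9% of 722. Horse 13, among the strongest for the rises chosen in the iPAAG arm, had 73.7% of 857 genes higher, with a median of 0.33, and 45.1% of 548 genes lower, with a median of 0.20, so that the falls called in the other horses were not seen in it as a group. The gene lists differ in size and content between horses, since each was called from different libraries, so the shares do not rank the horses. In each horse 43.7% to 50.7% of all genes were higher.

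The spread between horses was similar before and after. In the 7 paired horses, the median SD over horses for genes with a mean log2 CPM of 7 or more was 0.30 at week 0 and 0.33 at week 4, and 56.8% of these genes had the larger SD at week 4. From 4 to below 7 the medians were 0.32 and 0.32, and from 1 to below 4 they were 0.59 and 0.58. The named genes were not alike in this: the SD of ENSECAG00000022525 went from 1.63 to 2.97 and that of ENSECAG00000020974 from 1.45 to 2.75, while that of ENSECAG00000056325 went from 2.56 to 1.67 (SD, n = 8 and 7). Unlike the medians above, these week 0 SDs include horse 11. That library had no read of ENSECAG00000022525 or ENSECAG00000056325 (log2 CPM of -5.09), which widens their week 0 spread.

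Week 4 was then compared with week 2, the stretch in which exercise began. Whether week 2 fluid preceded or followed the injection is not stated. In a fit of all 47 Control libraries limma called 0 genes (0.0%), with 805 genes (5.08%) at an unadjusted p below 0.05, a share that chance puts at 5%. It called 1 gene (0.00631%, lower at week 4) without the libraries of SD below 2, with 1029 genes (6.50%) at an unadjusted p below 0.05. Leaving out 1 horse from the fit of all 47 gave shares from 3.39% (without horse 15) to 7.90% (without horse 9). For ENSECAG00000022525 the difference was 0.06 ± 0.87 on the log2 scale (SE, adjusted p = 0.99), for ENSECAG00000056325 1.11 ± 0.88 (adjusted p = 0.886), for ENSECAG00000018814 -0.73 ± 1.24 (adjusted p = 0.926) and for ENSECAG00000020974 -1.92 ± 0.75 (adjusted p = 0.883). With SEs of this size, a difference such as that of ENSECAG00000020974 went uncalled (unadjusted p = 0.0132).

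Both weeks had been set against the same week 0 libraries, so their changes are given side by side. In the fit of all Control libraries, week 2 differed from week 0 in 660 higher (4.17%) and 507 lower genes (3.2%), and week 4 in 413 higher (2.61%) and 269 lower (1.7%). ENSECAG00000022525 was higher by 7.26 at week 2 and 7.32 at week 4, and ENSECAG00000056325 by 5.43 and 6.54. ENSECAG00000018814 was lower, with -5.45 and -6.18, and so was ENSECAG00000020974, with -2.56 and -4.49. The 844 genes called higher at week 4 had a median change from week 0 of 0.86 in this fit. The corresponding medians were 0.52 for week 2, 0.26 for week 6, 0.38 for week 8 and 0.17 for week 10. The 485 lower genes had a median of -0.94 in week 4, with -0.78, -0.49, -0.57 and -0.45 for the same other weeks. Over all genes the medians lay between -0.01 and 0.05. Without the libraries of SD below 2, week 2 differed from week 0 in 1912 higher (12.1%) and 1186 lower genes (7.49%). Week 4 then differed in 1318 higher (8.32%) and 773 lower genes (4.88%). In the other weeks the 844 genes then had medians of 0.80, 0.45, 0.45 and 0.39. The 485 genes had -0.89, -0.54, -0.60 and -0.56. The genes were selected on week 4 minus the same week 0 libraries. That favours week 4 and also a shift the same way at every other week, so these medians do not show a lasting change.

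Week 10 did differ from week 4. In Control joints 2708 genes were called (17.1%), 1145 higher (7.23%) and 1563 lower (9.87%) at week 10, and 3084 (19.5%) without libraries of SD below 2, of which week 10 has 2. The count was 794 without horse 9, 1376 without horse 2, 1421 without horse 15 and 1489 without horse 16. The named genes were chosen for their size at week 4, which favours a smaller value at other weeks. Both named rises were smaller at week 10: ENSECAG00000022525 was lower at week 10 than at week 4 by a change of -3.78 ± 0.87 (SE, adjusted p = 0.00341) and ENSECAG00000056325 by -3.48 ± 0.88 (adjusted p = 0.0064). Their median log2 CPM at week 10 was 1.69 and 1.76, still above the week 0 medians of -1.46 and -0.63. ENSECAG00000020974 was higher at week 10 than at week 4 by 4.10 ± 0.75 (adjusted p = 0.000611), with a median of 3.94, beside 4.76 at week 0, and its week 10 difference from week 0 was -0.39 ± 0.72 (adjusted p = 0.757). ENSECAG00000018814 had a difference of 2.68 ± 1.24 from week 4 (adjusted p = 0.128), and of 1.78 ± 1.27 without libraries of SD below 2 (adjusted p = 0.340).

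**Figure D5:**
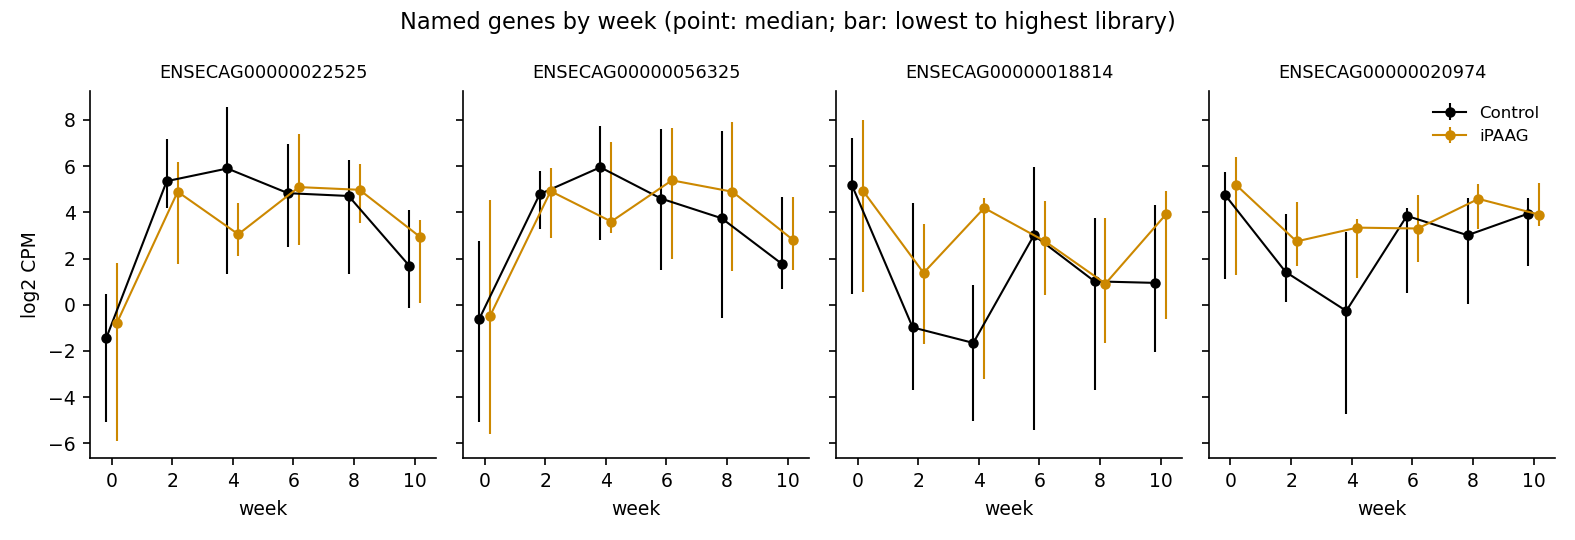
Log2 CPM (y axis) of the 4 named genes by week (x axis) in Control (black) and iPAAG (orange) joints. Points are medians and bars run from the lowest to the highest library (7 or 8 per point). They include libraries with an SD over genes below 2. In the iPAAG arm these are 4 of 7 libraries at week 4, and at week 10 only 2 of 8 have an SD of 2 or more. The medians of the 2 arms are therefore not compared here. The Control medians of the 4 genes lie nearer to their week 0 level at week 10 than at week 4, the week for which the genes were chosen.

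The iPAAG arm at week 4 offers libraries that the Control comparison does not share. It is limited by 4 of its 7 week 4 libraries and 1 of its 8 week 0 libraries having an SD over genes below 2, whereas no Control library of week 0 or week 4 has. Without these 5 libraries, 3 iPAAG libraries of week 4 remained against 7 of week 0. In that fit, 776 of the 844 genes called higher in Control joints were higher in iPAAG joints (91.9%, beside 36.1% of all genes), with a median change of 0.52 against -0.18 over all genes. Of these genes 197 were called higher (23.3%), beside 1.89% of all genes, and 0 were called lower. Of the 485 lower genes 456 were lower (94.0%, beside 63.9% of all genes), with a median of -0.73, and 113 were called lower (23.3%, beside 4.29% of all genes). Those 197 genes were 65.9% of all genes called higher in iPAAG joints in that fit, and the 113 were 16.6% of all called lower.

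With all iPAAG libraries the picture for the rises turned. Of the 844 genes, 270 were higher (32.0%, beside 46.9% of all genes), with a median change of -0.49, and 112 were called higher (13.3%, and 14.3% of that list) and 60 lower, where 4.94% of all genes were called higher and 19.3% lower. Of the 485 lower genes 332 were lower (68.5%, beside 53.1% of all genes) and 135 called lower (27.8%, and 4.42% of that list). The named rises were called in the iPAAG arm in both fits, ENSECAG00000022525 with 4.25 ± 0.86 and, without those libraries, 4.68 ± 1.19 (SE, adjusted p = 0.0078 and 0.0398) and ENSECAG00000056325 with 4.90 ± 1.08 and 7.07 ± 1.44 (adjusted p = 0.0107 and 0.0175). ENSECAG00000018814 had -3.00 ± 1.28 (adjusted p = 0.0869) with all libraries and fell by 6.73 ± 1.17 without those of SD below 2 (adjusted p = 0.00923). ENSECAG00000020974 was called with all libraries (-1.83 ± 0.61, adjusted p = 0.0412) and not without those of SD below 2 (-2.93 ± 0.80, adjusted p = 0.0514).

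The difference between arms in the change from week 0 to week 4 was called by limma for 0 genes (0.0%) in a fit of all 93 libraries, with 4907 genes (31.0%) at an unadjusted p below 0.05, beside 5% by chance. Without the libraries of SD below 2 it was called for 4 genes (0.0253%), with 1319 genes (8.33%) at an unadjusted p below 0.05. In all 4 the change from week 0 to week 4 was lower in iPAAG than in Control joints. The count was unstable in fits that kept the libraries of SD below 2. With only the groups compared in the fit it was 3420 (21.6%). Without horse 12 it was 3168, without horse 8 2717, without horse 17 2008, without horse 10 415 and without horse 1 it was 1. Horses 8, 12 and 17 gave the only 3 iPAAG libraries of week 4 with an SD of 2 or more (3.71, 3.58 and 3.75). None of the named genes was called for this difference in the fit of all libraries. The closest was ENSECAG00000020974 with 2.59 ± 0.95 (SE, adjusted p = 0.0731), followed by ENSECAG00000022525 with -3.14 ± 1.20 (adjusted p = 0.0781), and without libraries of SD below 2 these were 1.57 ± 1.21 (adjusted p = 0.754) and -2.72 ± 1.45 (adjusted p = 0.619).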

How the data were processed

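RNA of cells pelleted from synovial fluid was sequenced with the SMARTer Stranded Pico kit for total RNA (labels' protocols). The authors deposited log2 CPM values of 15838 genes in 93 libraries, 1 column each. STAR 2.7.10b, EquCab3.0 and limma 3.62.2 are named in the submitters' processing notes; how reads were counted, on which strand and annotation, and which genes were filtered out is not given in the sources used here, so shares of overlapping or near-identical genes are uncertain. On the scale set by each library's smallest value, 100% of values were whole reads plus 0.5, within 0.05 reads; intervals from such PCR-amplified reads would cover counting error only.

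Limma 3.58.1 in R 4.3.3 took the deposited log2 values of the 15 Control libraries and fitted week means, a variance trend and horse as a random block (consensus correlation 0.19), because the same animals were sampled repeatedly. Deviations of a horse's libraries from the week means correlated by -0.11 to 0.37. Benjamini-Hochberg adjustment ran over all genes, with a threshold of 0.05. Comparisons with weeks 2 and 10 used all 47 Control libraries, and the arms' difference all 93. An earlier analysis had fitted all 93 libraries for every comparison. Here week 4 against week 0 was fitted on its own groups, so that libraries of low spread in other groups do not enter its variance. Such libraries do enter the other comparisons, whose main counts of called genes are also given without them. Changes of named genes between Control weeks are mostly given only with them. When horses were left out, the correlation of the full fit was kept. Library measures were compared by two-sided exact paired permutation tests. Genes detected were counted at a common depth of 17419105 reads. No pair of libraries in a group agreed within sampling noise (chi-square per degree of freedom of at least 44.8). The comparison and gene rule were chosen with earlier results of these data known; plain CPM scaling, the iPAAG fits and the other Control weeks were added after seeing the data. The model was tested on simulated data. Python 3.11.15, numpy 2.4.6, pandas 2.3.3, scipy 1.17.1 and matplotlib 3.10.9 were used.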

Additional observations from a re-analysis of the deposited data

Results flagged for a closer look

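In 18 sets of values checked (5 library measures and 4 named genes at week 0 and at week 4), 4 had a library far from the rest of its group, and chance gives about 1 in 20. Of these, 3 belong to the week 0 library of Control horse 11: an SD of log2 CPM over genes of 4.21, 17431476 reads in genes, and 13478 genes expected at the common depth, the highest of its group for the first and the lowest for the others. The fourth is the week 4 library of Control horse 13, whose SD over genes of 2.94 was the lowest of its group. Measures of 1 library are not independent, so the 4 flags do not show an excess over the 1 in 20. Horse 11 has no week 4 library. Without horse 11 limma called 1447 genes and without horse 13 1405, beside 1329 with both.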

How the results depend on the processing

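The 1329 genes called at week 4 against week 0 became 613 with all 93 libraries in the fit (263 higher and 173 lower shared with the 1329), 682 with all Control libraries, 4824 with array weights and, added after seeing the data, 2407 with plain CPM. They became 675 with no replicate block and 838 with horse as a fixed replicate block; the pairing is by animal. Leaving out 1 horse gave 220 to 1851 genes. The 63.5% higher became 18.3% with plain CPM, 83.9% with median centring, 49.0% with array weights, 73.9% with no replicate block and 74.9% with voom weights. Quantile normalisation, 2 reads added, a minimum mean log2 CPM of 1 and spread as a covariate gave counts within 1.5 times. For week 4 against week 2 the 0 genes became 1 without libraries of SD below 2 and 0 without each Control horse in turn. For week 10 against week 4, leaving out 1 horse gave 794 to 3447 genes, and no other alternative moved 2708 by over 1.5 times. For the arms' difference, 0 became 4 without libraries of SD below 2, 3420 with only the groups compared, and 0 to 3168 without 1 horse. The 4 named genes kept their direction in all 20 alternatives, and the call in 18 to 20. An edgeR test on recovered reads was planned and not run.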
